A study of Mus musculus with 9 samples.

Results

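Serpina3n, Lcn2, Lrg1, Hp and Cp encode acute-phase proteins that cells release into blood and tissue fluid, and their mRNA was followed in the hearts of 9 male mice. These 5 genes, of 13890 in the count table, were chosen by name for what their proteins do, with the difference between the libraries labelled T and the sham libraries already known. That difference is therefore a description: its size and error are given without a P-value, and its calls are counted without being read as a result. All 5 passed the filter on low counts, which kept 13364 genes. Levels are given as CPM, a gene's counts relative to the size of its library, scaled by TMM.

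Every mouse was of the NSG strain, which lacks T, B and natural killer cells and accepts human cells, and was 8 weeks old at surgery. Sham mice (S, animals 2, 3 and 5) had saline injected into the spleen. Animals 11, 12 and 15 are labelled as hosts of HCT116, a human colorectal cancer line, injected into the spleen to seed the liver (T). Animals 20, 21 and 22 are labelled as HCT116 hosts that also received weekly ACVR2B/Fc, a soluble activin receptor fused to an antibody Fc fragment that binds myostatin and activins (A + T). By the study's methods, S and T mice received saline in place of ACVR2B/Fc. By the labels, hearts were taken about 3 weeks after surgery, and the study's methods place this a few days later. The label T is in doubt: in the study's own table of genes, the changes computed here for these 3 animals correspond to the column for sham mice given ACVR2B/Fc and not to the column for tumour hosts. Whether the sample labels or the headings of that table are exchanged cannot be told apart here, and they are called the libraries labelled T throughout.

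The acute-phase response is the change in secreted proteins that follows infection, injury or a growing tumour. Interleukin-6 and its relatives act through receptors that share the subunit Il6st, and the Janus kinases then activate Stat3. Interleukin-1 acts beside them through NF-kB and C/EBP factors, and glucocorticoids strengthen the response. The liver makes most of these proteins, but heart muscle, vessels, fat, lung and leukocytes make some of them too. Serpina3n inhibits serine proteases. Lcn2 binds the iron carriers of bacteria, and Lrg1 alters TGF-beta signalling in vessels; neutrophil granules hold both. Hp captures free haemoglobin, and Cp oxidizes iron as it leaves cells.

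Depth ranged from 12392222 to 19732471 counts per library, where 3 counts equal a level of 0.152 to 0.281 CPM. Heart muscle markers were present in every library, with a summed level of 10 genes between 58886 and 90757 CPM. The library of animal 22 stood apart. Its 6 listed lung epithelium genes summed to 1466 CPM, of which the airway secretory gene Scgb1a1 gave 1078, and its 7 neutrophil genes summed to 205 CPM. Animal 12 also stood apart, with lung genes at 167 CPM and adipocyte genes at 83.2 CPM. The other 7 libraries held between 1.05 and 3.80 CPM of lung genes, between 3.10 and 21.8 CPM of neutrophil genes and between 1.66 and 21.4 CPM of adipocyte genes, with animal 5 highest in the last of these. The 9 liver markers listed summed to between 7.53 and 63.9 CPM, highest in animal 12, where Cyp2e1 gave 37.9 CPM and albumin (Alb) 0.178 CPM. Alb was at most 12.4 CPM in any heart. Values of the members that moved by over 1.5 times, or calls that changed, without animal 5, 12 or 22 are given with and without it.

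The stretch around the start of transcription is shown for the members whose levels differed most clearly between groups, from 250 bases before to 50 bases after the RefSeq start site in build GRCm38.p6, 5′ to 3′ on the gene's own strand. Capitals mark matches, on either strand, to the letters of motifs for the factors named above: TTCNNNGAA for STAT factors, TTGCNNAA for C/EBP factors, GGANTTTCC for NF-kB and ACANNNTGT for the glucocorticoid receptor.
Serpina3n (chr12:104406458-104406757, plus strand): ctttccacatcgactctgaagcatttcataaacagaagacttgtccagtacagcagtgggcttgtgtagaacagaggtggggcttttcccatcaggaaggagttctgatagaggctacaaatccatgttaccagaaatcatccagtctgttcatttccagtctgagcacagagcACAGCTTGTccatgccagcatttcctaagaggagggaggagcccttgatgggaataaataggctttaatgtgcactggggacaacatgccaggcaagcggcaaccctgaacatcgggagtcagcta
Lcn2 (chr2:32387690-32387989, minus strand): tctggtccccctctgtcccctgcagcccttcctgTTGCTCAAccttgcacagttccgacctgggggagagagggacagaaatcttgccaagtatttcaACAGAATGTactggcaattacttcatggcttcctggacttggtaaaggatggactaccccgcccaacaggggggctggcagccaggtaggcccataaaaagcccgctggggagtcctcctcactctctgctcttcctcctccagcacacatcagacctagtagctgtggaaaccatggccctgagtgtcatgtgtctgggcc
Lrg1 (chr17:56121897-56122196, minus strand): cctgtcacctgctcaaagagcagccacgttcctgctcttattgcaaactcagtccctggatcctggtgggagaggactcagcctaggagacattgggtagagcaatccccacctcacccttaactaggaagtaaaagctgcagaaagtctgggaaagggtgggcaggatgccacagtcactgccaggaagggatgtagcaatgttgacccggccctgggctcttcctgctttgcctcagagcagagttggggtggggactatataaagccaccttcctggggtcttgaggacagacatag
Cp, the second of 2 listed starts (chr3:19956999-19957298, plus strand): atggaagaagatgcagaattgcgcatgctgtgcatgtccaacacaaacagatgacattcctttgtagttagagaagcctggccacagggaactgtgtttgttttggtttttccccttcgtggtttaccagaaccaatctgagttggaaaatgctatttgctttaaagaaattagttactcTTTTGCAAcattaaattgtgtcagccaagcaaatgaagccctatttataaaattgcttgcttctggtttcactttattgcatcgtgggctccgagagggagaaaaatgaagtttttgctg
The Serpina3n stretch held ACAGCTTGT at position -76 from the start. That of Lcn2 held ACAGAATGT at -152 and the C/EBP letters TTGCTCAA at -216, and that of Cp held the C/EBP letters on its other strand, TTTTGCAA, at -70. Lrg1 and the first Cp start matched none of these 4 motifs, and no member's stretch matched the STAT or NF-kB letters. Of 32851 RefSeq promoters of the same length, 6.85% held the glucocorticoid receptor letters, 10.8% the C/EBP letters, 8.30% the STAT letters and 1.25% the NF-kB letters. A match of letters is not evidence of binding. RefSeq gave a promoter for 4 of the 5 members, and Hp is named only.

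Serpina3n, the member with the widest change between groups, lies at chr12:104406729-104414329 on the plus strand (GRCm38). Its level was 15.9, 16.2 and 51.4 CPM in S (animals 2, 3 and 5), 236, 321 and 268 CPM in the libraries labelled T (animals 11, 12 and 15) and 70.1, 45.2 and 86.5 CPM in A + T (animals 20, 21 and 22). The libraries labelled T lay above all others, and animal 5 stood apart from the other sham hearts and inside the A + T range. Sham hearts had a mean of 27.8 ± 20.4 CPM, the libraries labelled T one of 275 ± 42.8 CPM and A + T hearts one of 67.3 ± 20.8 CPM (SD, n = 3 each). Between S and the libraries labelled T the log2 fold change was 3.32 (SE 0.43, 95% confidence interval 2.37 to 4.28), and it was 4.10 without animal 5. In whole hearts, a changed number of cells of a type and a changed amount of RNA per cell cannot be told apart.

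Lcn2, on the minus strand at chr2:32384633-32388252, had the same order of groups at lower counts. It was at 4.97, 3.80 and 13.4 CPM in S, at 38.8, 39.2 and 45.5 CPM in the libraries labelled T and at 14.7, 9.18 and 21.8 CPM in A + T. Animal 5 was again the highest sham heart, and within A + T the order of animals 21, 20 and 22 was that of Serpina3n. The log2 fold change in T vs. S was 2.52 (SE 0.41), or 5.72-fold, and it was 3.23 without animal 5. There were between 3.19 and 4.25 Serpina3n counts for each Lcn2 count in S, between 5.88 and 8.17 in the libraries labelled T and between 3.97 and 4.92 in A + T.

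Lrg1 lies at chr17:56119678-56122001 on the minus strand. Its levels were 31.7, 27.3 and 42.5 CPM in S, 62.5, 64.5 and 62.9 CPM in the libraries labelled T and 32.8, 38.9 and 53.1 CPM in A + T. The 3 libraries labelled T were nearly alike, with an SD of 1.06 CPM, whereas S and A + T overlapped. The log2 fold change in T vs. S was 0.91 (SE 0.18).

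Cp, at chr3:19957054-20009145 on the plus strand, was the most abundant member in S by CPM. It was at 135, 142 and 136 CPM in S, at 219, 234 and 173 CPM in the libraries labelled T and at 130, 123 and 141 CPM in A + T. S and A + T overlapped, and the lowest library labelled T, animal 15, still lay above both groups. The log2 fold change in T vs. S was 0.60 (SE 0.11), or 1.52-fold.

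Hp, at chr8:109575128-109579172 on the minus strand, varied widely within groups. It was at 1.49, 2.33 and 4.99 CPM in S, at 5.64, 33.9 and 2.62 CPM in the libraries labelled T and at 3.34, 5.53 and 60.4 CPM in A + T. Without animals 12 and 22, all values lay between 1.49 and 5.64 CPM, and the 3 groups overlapped. The highest library of T held 13.0 times the level of the lowest, and that of A + T 18.1 times. The log2 fold change in T vs. S was 2.34 (SE 1.20), and it was 0.58 without animal 12.

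**Figure D1:**
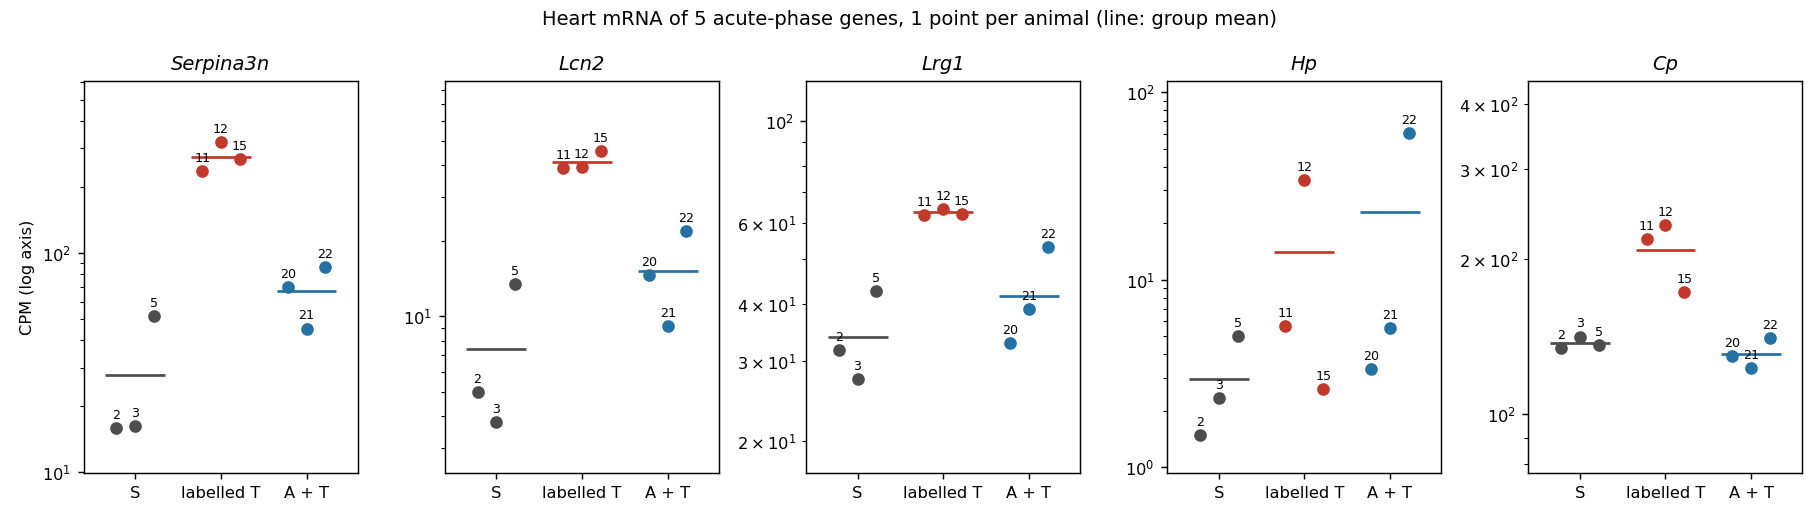
Level of each member in CPM on log axes that differ between panels, with 1 numbered point for each animal and a line at the group mean (n = 3). For Serpina3n, Lcn2, Lrg1 and Cp the libraries labelled T lie above every S and A + T library, whereas for Hp animals 12 and 22, at 33.9 and 60.4 CPM, lie above the other 7.

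In T vs. S, 4 of the 5 members did not overlap between the groups, as did 42.6% of all genes tested. A gene is called where edgeR's quasi-likelihood test over all genes gives an adjusted P under 0.05. The same 4 members were called higher, against 10.3% of all genes called higher and 21.2% called in either direction. These counts come from the contrast known when the members were chosen, and nothing is read from them. The direction of these 4 was the same in 18 other ways of processing or with an animal left out. All of these reuse the libraries of that contrast, so this is no sign of stability.

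Levels of different genes can be compared on the deposited log2 values, which are scaled to gene length. The length they imply is 2.10 kb for Serpina3n, 0.858 kb for Lcn2, 1.36 kb for Lrg1, 1.35 kb for Hp and 6.30 kb for Cp. The longest transcript had 4564 bases for Cp and 1374 for Lcn2, so the place of these genes depends on the length used. The orders given here hold for the implied lengths only. In S the mean log2 level per length was highest for Lrg1, 4.62, followed by Cp, 4.45, and these neighbours overlapped between animals. Serpina3n followed at 3.50 and overlapped with Cp and Lrg1 through animal 5, and Lcn2, 2.92, overlapped with Serpina3n. Hp was lowest at 1.01, below every value of Lcn2. In the libraries labelled T the order was another one. Serpina3n led at 7.02, with no overlap with the next gene, and Lcn2, 5.59, and Lrg1, 5.54, overlapped above Cp, 5.04, which overlapped with none of them. Hp had a mean of 2.59, below every value of Cp. In A + T, Serpina3n, 4.96, and Lrg1, 4.91, overlapped. Cp, 4.38, lay below every value of Lrg1 but overlapped with Serpina3n. Lcn2, 4.07, overlapped with Cp, Serpina3n and Lrg1, and Hp, with a mean of 2.97, overlapped with all of them. Serpina3n took between 8.40% and 20.7% of the summed counts of the 5 members in S, between 42.0% and 48.5% in the libraries labelled T and between 20.4% and 28.0% in A + T.

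The comparison of A + T with T asks, as the samples are labelled, whether ACVR2B/Fc changes the heart of a tumour host. If the libraries labelled T are sham mice given ACVR2B/Fc, it sets tumour hosts against mice without a tumour instead, both given ACVR2B/Fc. T vs. S would then compare sham mice with and without ACVR2B/Fc. A + T vs. T shares the T libraries with T vs. S, so the values of these comparisons are not independent. The members were chosen with their difference in T vs. S known, and that choice favours a fall from T to A + T in advance. The adjusted P-values of A + T vs. T do not allow for that choice. Serpina3n and Cp were lower in A + T. Serpina3n had a log2 fold change of -2.03 (SE 0.40, edgeR adjusted P = 0.0207), or 4.08-fold lower, and Cp of -0.67 (SE 0.11, edgeR adjusted P = 0.00955), or 1.59-fold lower. Lcn2, with a log2 fold change of -1.43 (SE 0.39, edgeR adjusted P = 0.0576), and Lrg1, with -0.61 (SE 0.18, edgeR adjusted P = 0.0794), did not pass, although no A + T library reached the range of T for either. Hp had a log2 fold change of 0.69 (SE 1.03, edgeR adjusted P = 0.743), which became -1.71 without animal 22.

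Thus 2 of 5 members were called, both lower, where 2.79% of all genes were called lower and 5.88% in either direction. The groups did not overlap for 4 of 5 members, against 25.4% of all genes. Since the choice of members favours a fall, nothing is read from these counts. The call of Serpina3n was lost when any of animals 11, 12, 20 or 21 was left out (edgeR adjusted P between 0.0527 and 0.0676), and that of Cp without animal 11 (0.0536). Without animal 22, and without animals 5, 12 and 22 together, Serpina3n, Lcn2, Lrg1 and Cp were all called lower. Without animal 5, Lcn2 was called lower beside Serpina3n and Cp (edgeR adjusted P = 0.0217 for Lcn2).

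A + T vs. S shares its libraries with both other comparisons. Serpina3n had a log2 fold change of 1.29 (SE 0.41, edgeR adjusted P = 0.0778) and Lcn2 of 1.09 (SE 0.42, edgeR adjusted P = 0.132). Lrg1 was at 0.30 (SE 0.18, edgeR adjusted P = 0.326), Cp at -0.07 (SE 0.11, 95% confidence interval -0.31 to 0.17, edgeR adjusted P = 0.733) and Hp at 3.03 (SE 1.19, edgeR adjusted P = 0.139). By edgeR's quasi-likelihood test, 0 of 5 members were called, against 8.31% of all genes. At an unadjusted P under 0.05 there were 3, Serpina3n, Lcn2 and Hp, against 26.1% of all genes. DESeq2 called 0, limma on the deposited log2 values 0 and edgeR's likelihood ratio test 1, Serpina3n. All 5 members overlapped between S and A + T, as a count of 0 without overlap against 32.4% of all genes. Without animal 5, the highest sham heart for Serpina3n and Lcn2, both were called higher, with log2 fold changes of 2.07 and 1.80 (edgeR adjusted P = 0.00703 and 0.0218). The log2 fold change of Hp was 0.63 without animal 22.

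**Figure D2:**
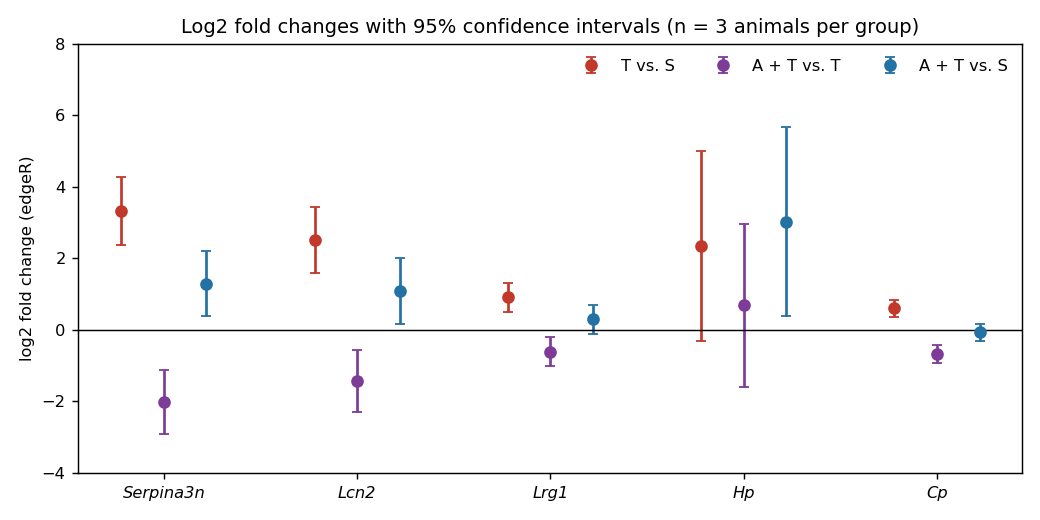
Log2 fold changes from the edgeR fit of all 9 libraries (y axis) for each member (x axis), with bars for 95% confidence intervals, n = 3 animals per group. For Serpina3n, Lcn2, Lrg1 and Cp the points of T vs. S lie above 0 and those of A + T against T, which share the T libraries, below it, and the Hp interval is the widest in each comparison.

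Hp is made or stored by adipocytes, airway and neutrophils in mice, and the library levels of their markers are given beside it. In animal 22, where Hp was highest, the neutrophil gene S100a9, which gave 50.7% of the summed neutrophil list, was at 113 CPM, against between 1.16 and 11.2 CPM elsewhere. In animal 12, where Hp was next, the adipocyte gene Cfd was at 49.7 CPM, against between 0.553 and 8.97 CPM elsewhere, and Scgb1a1 was at 79.9 CPM. The alveolar genes Sftpb and Ager were at 199 and 173 CPM in animal 22 and at 0.594 and 0.416 CPM in animal 12, whereas the airway gene Bpifa1 was at 0 in animal 22 and at 62.6 CPM in animal 12. In animal 22 the adipocyte list was at 8.93 CPM, inside the range of the other hearts. Alas2, the erythroid gene of haem synthesis, was at 284 CPM in animal 12 and 341 in animal 22, and also at 283 in animal 21, where Hp was at 5.53 CPM. Markers of mesothelium, a surface lining, summed to 121 CPM in animal 12 and 181 CPM in animal 22, against between 32.7 and 96.8 CPM elsewhere. Heart muscle markers summed to 65864 and 58886 CPM in these animals, against between 77791 and 90757 CPM elsewhere. The part of these cells in the Hp values was not tested.

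**Figure D3:**
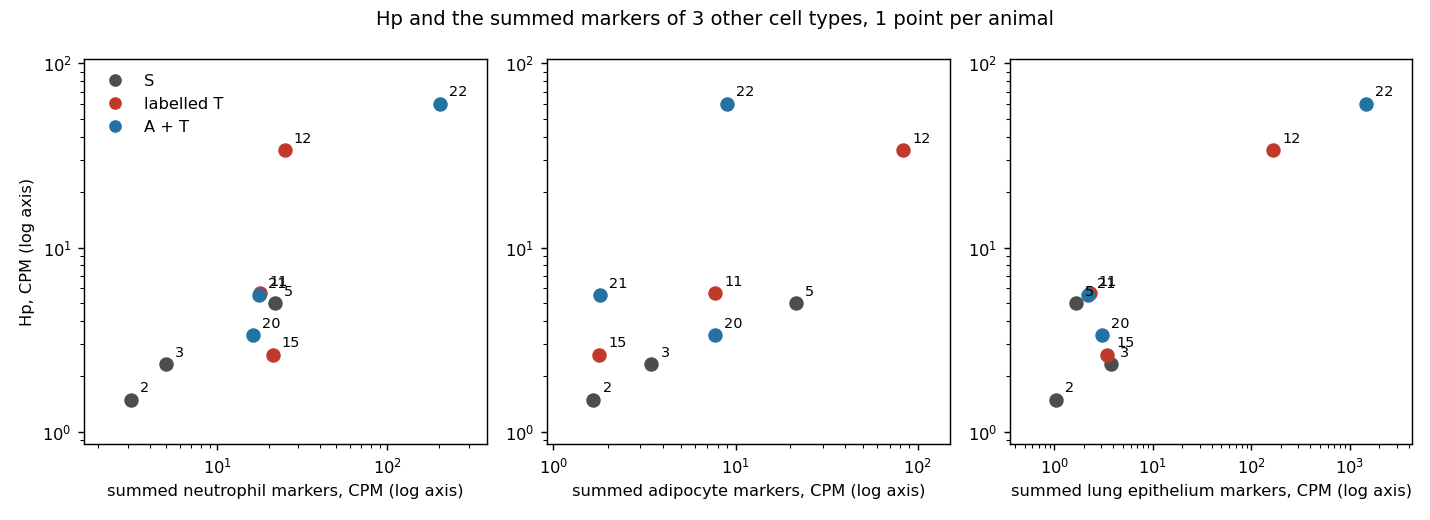
Hp (y axis) against the summed markers of neutrophils, adipocytes and lung epithelium (x axes), all in CPM on log axes, with 1 numbered point for each animal coloured by group. Animals 12 and 22 are highest for Hp and for lung markers, 167 and 1466 CPM, while animal 12 leads in adipocyte markers and animal 22 in neutrophil markers.

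Marker mRNA of other cell types also differed between the groups. Over all genes, 21.2% were called in T vs. S, 5.88% in A + T vs. T and 8.31% in A + T vs. S. In T vs. S all 7 fibroblast markers were called lower, and their sum ranged from 1448 to 1656 CPM in S, from 858 to 977 CPM in the libraries labelled T and from 1097 to 1608 CPM in A + T. Dcn, a matrix proteoglycan, gave 64.8% of that sum. Of 8 endothelial markers, 5 were called lower in T vs. S, and the sum ranged from 1005 to 1110 CPM in S, from 582 to 742 in T and from 753 to 974 in A + T. Of 8 macrophage markers, 2 were called higher in T vs. S and 7 in A + T vs. S. In A + T against T, where Serpina3n and Cp were called lower, 5 macrophage, 5 fibroblast and 1 endothelial marker were called higher. The macrophage sum ranged from 236 to 248 CPM in S, from 247 to 274 in T and from 318 to 403 in A + T. Of 6 neutrophil markers tested, 0 were called in each comparison by edgeR, and the number with an unadjusted P under 0.05 was 0 in T vs. S, 1 in A + T against T and 5 in A + T against S. The sum of the neutrophil list in the libraries labelled T, between 17.8 and 24.9 CPM, overlapped with animal 5 at 21.8 CPM. The part of these cells in the members' values was not tested.

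The neighbours of Serpina3n on chromosome 12 are close copies that arose by duplication. Of the 75-base stretches of Serpina3n's longest transcript, 1.46% also occur in another gene's transcript, and the authors kept only reads that mapped to 1 place. The share was 6.87% for Serpina3i, 12.8% for Serpina3h, 9.65% for Serpina3m and 8.91% for Serpina3g, so the counts of these genes are less certain. For Lcn2, Lrg1, Hp and Cp it was 0.

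Of 6 copies tested, 3 were called higher in T vs. S, against 10.3% of all genes. Serpina3i was at 0.774, 0.862 and 1.08 CPM in S and at 5.70, 5.71 and 4.21 CPM in the libraries labelled T, a log2 fold change of 2.53 (SE 0.26). Serpina3m (2.28, SE 0.45) and Serpina3h (1.55, SE 0.38) were the others called. Serpina3m was at between 0.203 and 0.434 CPM in S, near the level of 3 counts, and between 1.05 and 1.59 CPM in the libraries labelled T. Serpina3k was not called in T vs. S. Its mean was lower in the libraries labelled T, 0.607 CPM, than in S, 1.33 CPM, and the groups overlapped. Serpina3c, the next most abundant copy after Serpina3h, had a log2 fold change of -0.0013 (SE 0.22) in the same comparison. In A + T vs. T none of the 6 was called by edgeR, and 3 had an unadjusted P under 0.05. In A + T vs. S, Serpina3i (1.66, SE 0.26) and Serpina3g (2.08, SE 0.50) were called higher. Serpina3g was highest in A + T, at 1.55, 2.30 and 4.43 CPM, which differs from the order of groups of Serpina3n. The highest of these values was that of animal 22. S and the libraries labelled T held at most 0.940 and 1.25 CPM.

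The genes that carry the acute-phase signal were counted by role. Of 9 listed inducers, only 2, Il1b and Lif, were in the count table, and Lif did not pass the filter. The others, Il6 among them, had no row there, so their levels are not known. Il1b was at between 0.442 and 3.47 CPM in 8 hearts and at 29.9 CPM in animal 22. It was called in no comparison by edgeR, with an unadjusted P under 0.05 in both comparisons of A + T. Of 11 receptor genes, 3 were called higher and 1 lower in T vs. S, against 21.2% of all genes called in either direction. Osmr, the oncostatin M receptor, was at 27.3, 25.7 and 24.9 CPM in S, at 65.7, 66.0 and 61.0 CPM in the libraries labelled T and at 36.4, 31.3 and 41.3 CPM in A + T, without overlap between any groups. It rose by a log2 fold change of 1.31 (SE 0.10) in T vs. S, fell by 0.82 (SE 0.10) in A + T vs. T and was 0.49 (SE 0.10) higher in A + T than in S. Tnfrsf1a, a receptor for tumour necrosis factor (0.48, SE 0.14), and Lifr, the receptor for leukaemia inhibitory factor (0.38, SE 0.10), also rose in T vs. S, and the glucocorticoid receptor Nr3c1 fell by 0.48 (SE 0.07). Lifr fell in A + T vs. T by 0.41 (SE 0.10). The shared subunit Il6st, the most abundant of the list, had log2 fold changes of 0.09 (SE 0.07) in T vs. S and -0.11 (SE 0.07) in A + T vs. T.

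Of 18 signal transducers and transcription factors, 5 were called higher and 0 lower in T vs. S. Over all genes, 10.3% were called higher there and 21.2% in either direction. Stat3 was at 167, 164 and 188 CPM in S, at 372, 324 and 379 CPM in the libraries labelled T and at 270, 284 and 237 CPM in A + T. It rose by 1.05 on the log2 scale (SE 0.10) in T vs. S, fell by 0.44 (SE 0.10) in A + T vs. T and was 0.61 (SE 0.10) higher in A + T than in S. Socs3, the feedback inhibitor that Stat3 induces, rose by 1.65 (SE 0.28) in T vs. S and was 1.21 (SE 0.28) higher in A + T than in S, but had -0.44 (SE 0.27, edgeR adjusted P = 0.367) in A + T vs. T. Cebpb, a C/EBP factor, rose by 1.15 (SE 0.31) in T vs. S. Cebpa was called higher in A + T vs. S (1.26, SE 0.30), with its highest level, 23.5 CPM, in animal 22. The median over the 18 genes was 0.19 in T vs. S, against -0.0038 over all genes tested.

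**Figure D4:**
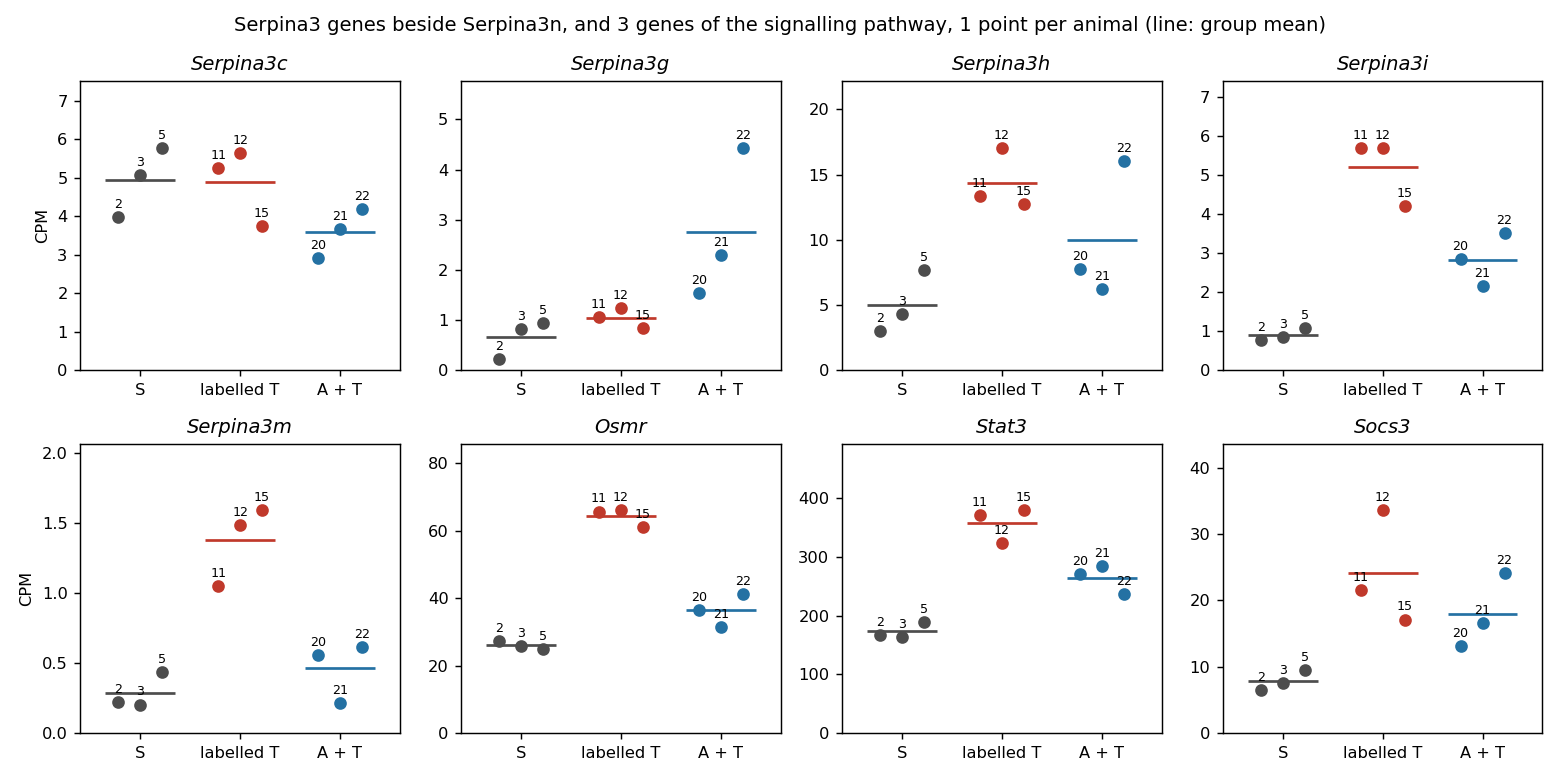
Levels in CPM, on axes that start at 0, of 5 genes beside Serpina3n and of Osmr, Stat3 and Socs3, with 1 numbered point for each animal and a line at the group mean (n = 3). Serpina3i, Osmr and Stat3 are highest in the libraries labelled T, whereas Serpina3g is highest in A + T, at between 1.55 and 4.43 CPM.

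Of 16 other acute-phase genes tested, 3 were called higher and 1 lower in T vs. S, where 21.2% of all genes were called in either direction. Itih4, of the inter-alpha-trypsin inhibitor heavy chain family, rose by 1.77 (SE 0.25) and the complement component C4b by 1.61 (SE 0.31). Both were also called higher in A + T vs. S (1.36, SE 0.25, and 1.47, SE 0.31). Both were highest in animals 12 and 22, Itih4 at 13.7 and 11.3 CPM and C4b at 148 and 102 CPM. In the other libraries of T and A + T, Itih4 was between 6.24 and 9.63 CPM and C4b between 58.9 and 85.7 CPM. Sham hearts held at most 3.61 CPM of Itih4 and 35.9 CPM of C4b. Pzp, a protease inhibitor of the macroglobulin family, fell by 0.95 (SE 0.29) in T vs. S and by 1.53 (SE 0.30) in A + T vs. S, at a level of at most 2.84 CPM. Cd14, the lipopolysaccharide co-receptor, was higher in A + T vs. S (0.78, SE 0.21), with its highest level, 18.5 CPM, in animal 22. The most abundant of the list, complement C3, was at 582 CPM in animal 12 and 559 in animal 22 and between 174 and 293 CPM elsewhere, and was called in no comparison. Saa3, the serum amyloid gene of tissues, was at 48.1 CPM in animal 21, at 12.2 in animal 12, at 6.71 in animal 22 and at most 1.11 CPM elsewhere, and is named for this after its values were seen. The median log2 fold change of the 16 genes was 0.42 in T vs. S and 0.09 in A + T vs. T. Of 7 genes of proteins that fall in the acute phase, such as Alb and transferrin (Trf), 0 were called in each comparison by edgeR, and the number with an unadjusted P under 0.05 was 2 in T vs. S, 1 in A + T against T and 3 in A + T against S.

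Among 12 genes of proteins that act with the members, 2 were called higher and 3 lower in T vs. S. The share of all genes called in either direction was 21.2%. Hmox1, which breaks down the haem that the Hp route delivers, rose by 1.11 (SE 0.22), and Cd163, the receptor for the complex of Hp and haemoglobin, rose by 0.51 (SE 0.16). Eng, a TGF-beta co-receptor of vessels (-0.72, SE 0.14), Lrp1, a receptor that clears protease complexes (-0.81, SE 0.23), and Slc40a1, the iron exporter that Cp works beside (-0.64, SE 0.16), were lower. Slc40a1 was at 8.46, 9.18 and 11.6 CPM in S, at 6.19, 6.42 and 6.08 CPM in the libraries labelled T and at 14.7, 10.9 and 12.6 CPM in A + T, where it rose by 1.03 (SE 0.16) over T. This is the reverse of the order of Cp between those groups. Hmox1 (0.96, SE 0.22) and Cd163 (0.89, SE 0.16) were also called higher in A + T vs. S.

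The genes whose levels ran most like each member over the 9 libraries are given by Pearson's r of log2 CPM as a description. These 9 points fall into 3 groups, so any gene that differs between groups in the same way scores highly. For Serpina3n the first was Lcn2 (r = 0.986), and Agt, the precursor of angiotensin (0.979), and Mt2, a metal-binding protein (0.978), came next, before Bcap29 and Fgl2. For Lcn2 they were Serpina3n, Rchy1 (0.971), Mt2 (0.962), Tspyl4 and Gm4841. Mt2 was at 10.6, 10.2 and 25.7 CPM in S, at 186, 195 and 141 CPM in the libraries labelled T and at 42.7, 46.1 and 76.7 CPM in A + T, so it too had animal 5 as its highest sham heart. For Lrg1 they were Mbd1 (0.978), Rchy1, Ptp4a1 and Dnajc1, and for Cp they were Acot9 (0.983), Proser2, Ftsj3, Osbpl9 and Faf1. For Hp they were Cfb (0.958), a complement factor, Tmem98, Hdc, Pcna and Bloc1s3, and Cfb was at 23.9 CPM in animal 12 and 20.4 in animal 22 against at most 10.8 CPM elsewhere. Among the members themselves, r was 0.986 for Serpina3n with Lcn2, 0.930 for Serpina3n with Lrg1, 0.780 for Serpina3n with Cp and 0.486 for Serpina3n with Hp.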

How the data were processed

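The authors sequenced mRNA of whole hearts as 75-base paired ends, mapped them with STAR to mm10 and, with featureCounts, counted uniquely mapped pairs per RefSeq gene, by strand and at a mapping quality of at least 10. The deposited tables hold these raw counts and log2 values that equal log2 CPM with a prior count of 2 minus a constant for each gene, as for values scaled to gene length. The filter removed 526 of 13890 genes, those under 0.5 CPM in more than 4 libraries. CPM used TMM library sizes. Groups came from the labels, and all 9 libraries entered 1 fit by edgeR 4.0.16 (R 4.3.3), quasi-likelihood test, with Benjamini-Hochberg adjustment over all 13364 genes. A gene was called at an adjusted P under 0.05. Replicate libraries were further apart than counting noise allows, and the labels number the animals. The counts carry no molecular identifiers, so limits from 3 counts cover counting error only.

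The members and the lists (other acute-phase genes, negative acute-phase genes, Serpina3 copies, partners, inducers, receptors, transducers and cell type markers) were chosen with earlier results of these data known. Besides the 5 members, the text names up to 4 called genes with the largest change and the 3 most abundant in each list, the 5 genes most correlated with each member, and any gene that holds over 50% of a marker sum. Some genes that this rule names are not reported here. The study's own comparison columns were not used for any value. Alternatives were DESeq2 1.42.0, limma 3.58.1 on the deposited log2 values, edgeR's likelihood ratio test, other scalings and filters, only the groups compared, and each animal left out. Leaving out animals 5, 12 and 22 together was an alternative chosen after seeing the data. Gene positions come from GENCODE M21 (GRCm38) and promoters from RefSeq.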

Additional observations from a re-analysis of the deposited data

How the results depend on the processing

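Members called in T vs. S numbered 4, and 5 without animal 22, with Hp added, which is no sign of stability because the members were chosen with that contrast known. In A + T vs. T, 2 members were called, against 4 by edgeR's likelihood ratio test, between 0 (without animal 11) and 4 (without animal 22) with each animal left out, and 4 without animals 5, 12 and 22. The pathway lists, without the members and the cell type markers, held 6 calls in A + T vs. T, against 10 by the likelihood ratio test, between 3 (without animal 11) and 10 (without animal 22) with each animal left out, and 10 without animals 5, 12 and 22. In the main fit 5.88% of all genes were called in A + T vs. T. In A + T vs. S, 0 members were called, against 1 by the likelihood ratio test, between 0 and 2 (without animal 5) with each animal left out, and 2 without animals 5, 12 and 22. The pathway lists held 13 calls in that comparison, and between 2 (without animal 3) and 17 with each animal left out, with 3 without animal 2, 7 without animal 5 and 8 without animal 21. In the main fit 8.31% of all genes were called in A + T vs. S. Hp in A + T vs. T ranged from -1.71, a reversal, without animal 22 to 2.44 without animal 12. The adjusted P of Lcn2 in A + T vs. T ranged from 0.0128 to 0.153 over the planned settings, and that of Lrg1 from 0.0124 to 0.193, with Lrg1 also called by DESeq2 (0.0170). Lcn2 was called lower with library size alone, with only the groups compared and by the likelihood ratio test. It was also called lower without animal 5 and without animal 22. The cause of these shifts was not tested. The other scalings moved the median of all genes by less than 0.1 on the log2 scale. The labels give no replicate numbers shared between groups. No paired analysis was possible because the labels number each animal once.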
